A study of Homo sapiens with 8 samples.

Results

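The genes described here encode the AP-1 transcription factors, a family of basic leucine zipper (bZIP) proteins. The 10 members were chosen by symbol: the FOS genes FOS, FOSB, FOSL1 and FOSL2, the JUN genes JUN, JUNB and JUND, and the partner genes ATF3, BATF3 and CREB5. All 10 were found among the 61533 genes of the count tables, and all 10 passed the filter on low counts that left 18738 genes for testing. Because a low gene such as CREB5 could pass only through the group where it was high, no weight was placed on that count.

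RNA was sequenced from 2 established human squamous carcinoma lines, A431 from skin and CAL27 from tongue. Subconfluent cells were treated for 16 h with DMSO as the solvent control or with a compound the labels call NEDD8i, and the 4 groups were A431 DMSO, A431 NEDD8i, CAL27 DMSO and CAL27 NEDD8i, with 2 libraries each. NEDD8 is a ubiquitin-like protein whose attachment to cullins activates the cullin-RING ubiquitin ligases, and treated cells were compared with DMSO cells of the same line. The compound's identity and dose were not stated in the labels, and a single line stands for each tumour type.

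AP-1 binds DNA as a dimer. FOS proteins pair mainly with JUN proteins, whereas JUN proteins can also pair with each other or with ATF-type proteins. The makeup of the dimer sets which genes respond and how strongly. FOS, FOSB, JUN, JUNB and ATF3 are immediate early or stress-induced genes, while FOSL1, which encodes FRA-1, accumulates under sustained ERK signalling and is known for its part in invasion of squamous carcinoma cells. JUN protein is degraded through cullin-RING ligases that use COP1 and DET1 or FBXW7 as receptors, but the measurements here are of RNA and hold no protein level.

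The libraries held 49037868 to 62509817 counts. Levels are CPM, counts scaled to library size with TMM factors, given per library or as mean ± SD (n = 2), and 3 counts in a library were 0.0454 to 0.0656 CPM. The chi-square between replicates was 6.26 to 13 per degree of freedom, a value that counting both mates of a pair raises, and each library was taken as 1 sample. Separate cultures are not named in the labels, and p-values therefore reflect spread between libraries that may be technical. All 9 squamous epithelial markers had counts in each group. Their summed level was 10000.3 to 10104 CPM under DMSO and 13163 to 13663 under NEDD8i in A431, and 14551 to 14604 and 18885 to 19552 CPM in CAL27. Of the 9, 5 were called higher and 2 lower in A431 (KRT5 and PKP1), and 5 higher and 4 lower in CAL27 (TP63, PKP1, DSP and KRT5). Of all genes tested, 22.5% were called higher and 21.1% lower in A431, and 23.2% and 26.4% in CAL27. The share of markers called lower in A431 was thus near that of all genes. TP63, a regulator of squamous identity, had a log2 change of -2.18 ± 0.06 in CAL27. Of the immune markers, PTPRC and CD68 had 0 counts in each group. The 6 fibroblast markers summed to 35.4 to 38.8 CPM under DMSO and 17.6 to 18.5 under NEDD8i in A431, with COL1A2 at 0 in both, and to 20.2 to 23.7 and 6.45 to 10.6 CPM in CAL27, with COL3A1 and PDGFRA at 0 in both. The 4 endothelial markers, with KDR at 0 in each group, summed to 19.6 to 21.9 and 5.22 to 5.56 CPM in A431 and to 5.95 to 6.63 and 10.3 to 10.7 CPM in CAL27. These sums followed CDH5, which went from 17.6 ± 1.46 to 2.24 ± 0.327 CPM in A431 and from 5.87 ± 0.707 to 10.3 ± 0.354 CPM in CAL27. VWF and PECAM1 were not called in either line. The part of these markers in the results on AP-1 was not tested.

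NEDD8i changed the AP-1 genes in opposite directions, and 8 of the 10 moved the same way in both lines. Called in either direction were 8 of 10 members in A431 and 9 of 10 in CAL27, against 43.6% and 49.6% of all genes tested. The members were chosen with earlier results of these data known, so their shares are no independent support. In A431, FOSL1, FOSL2, JUN, ATF3 and CREB5 rose, 5 of 10, against 22.5% of all genes tested, and FOS, FOSB and JUNB fell, 3 of 10, against 21.1%. In CAL27 the same genes rose together with JUND, 6 of 10 against 23.2%. The same 3 of 10 fell in CAL27, against 26.4%, a share near that of all genes tested. Called higher in both lines were 5 members, against 13.3% of all genes tested, and called lower in both were 3, against 12.8%. The median log2 change of the list was 0.13 in A431 and 0.58 in CAL27, beside -0.01 and -0.04 over all genes tested (-0.04 in each with genes at 0 in a group set to their bound), and these medians stand between the members that rose and those that fell. Changes were called at an adjusted p under 0.05 by edgeR's quasi-likelihood test, adjusted over all genes tested, and the ± after a log2 change is an approximate standard error. In bulk RNA, fewer cells expressing a gene and less RNA per cell cannot be told apart.

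**Figure D1:**
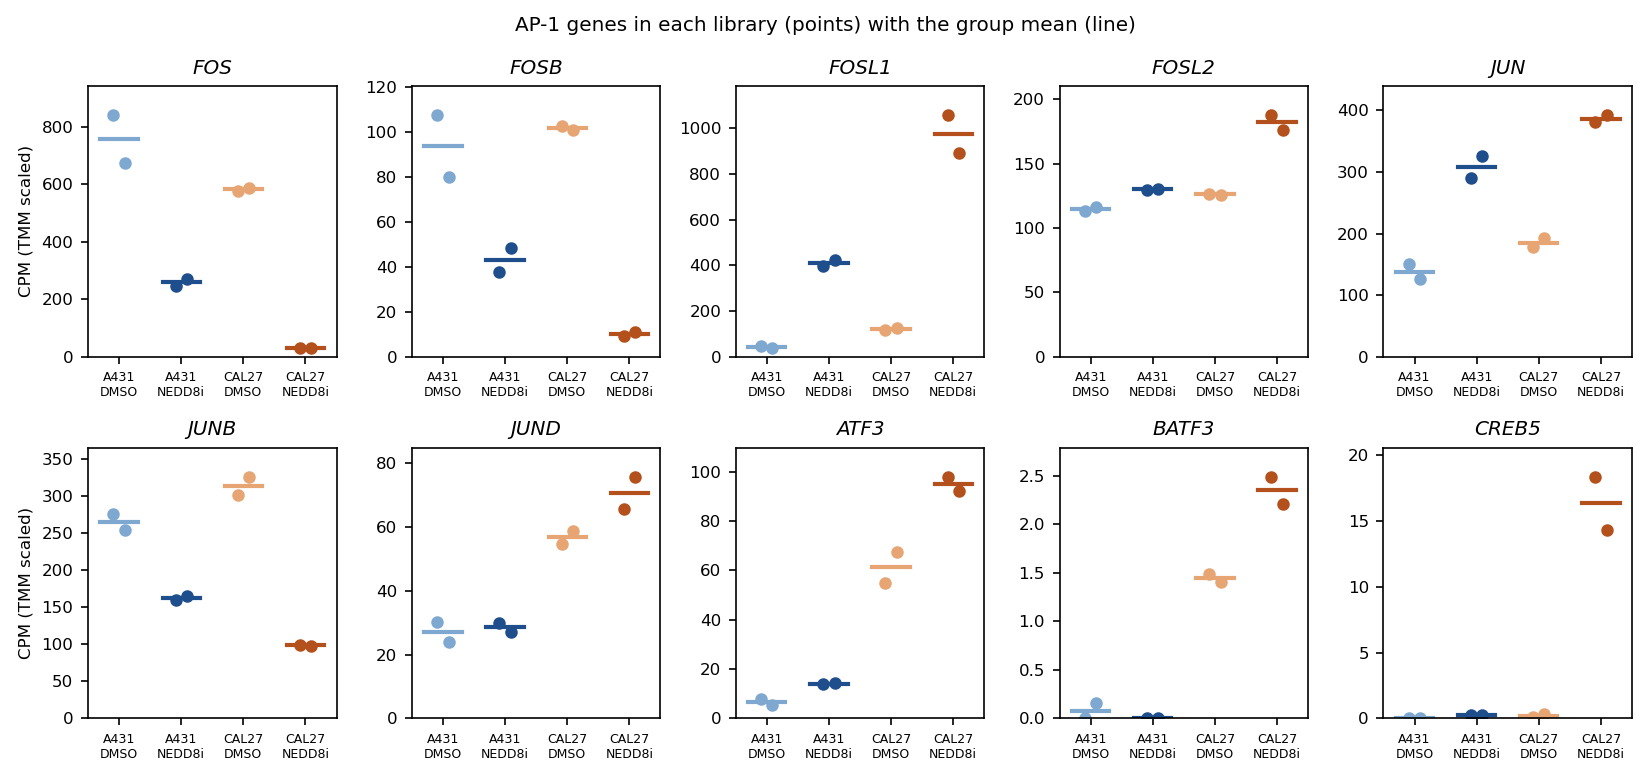
CPM of the 10 AP-1 genes (vertical axes, each starting at 0 with its own scale) in the 4 groups (horizontal axes), with points for the 2 libraries of a group and a line for their mean. FOS, FOSB and JUNB are lowest in CAL27 NEDD8i, where FOSL1, JUN, ATF3 and CREB5 are highest.

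FOS, the founding member of the family, was among the members with the steepest falls. It stood at 841 and 675 CPM in the A431 DMSO libraries, 248 and 272 in A431 NEDD8i, 577 and 588 in CAL27 DMSO and 32.1 and 29.6 in CAL27 NEDD8i. No groups overlapped, and the order from highest to lowest was A431 DMSO, CAL27 DMSO, A431 NEDD8i and CAL27 NEDD8i. FOS (ENSG00000170345.10, chromosome 14, 75278826 to 75282230 on GRCh38) fell 2.92-fold in A431 (log2 -1.54 ± 0.08, edgeR adjusted p = 3.13e-11) and 18.9-fold in CAL27 (-4.24 ± 0.09, edgeR adjusted p = 2.46e-16). The CAL27 response was lower than the A431 response by a log2 difference of -2.70 ± 0.11 (edgeR adjusted p = 1.04e-11). Such a difference was called for 5 of 10 members, against 34% of all genes tested, with 2 higher in CAL27 against 14.2% and 3 lower against 19.8%.

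FOSB, a close relative of FOS that is also induced within minutes of a stimulus, moved in parallel. Its levels were 108 and 80.0 CPM in A431 DMSO, 37.7 and 48.3 in A431 NEDD8i, 103 and 101 in CAL27 DMSO and 9.22 and 11 in CAL27 NEDD8i. The DMSO groups of the lines overlapped, and both NEDD8i groups lay below them without overlap. FOSB (ENSG00000125740.14, chromosome 19, 45467995 to 45475179) fell 2.18-fold in A431 (log2 -1.12 ± 0.12, edgeR adjusted p = 7.26e-07) and 10.1-fold in CAL27 (-3.33 ± 0.14, edgeR adjusted p = 1.86e-12). As for FOS, the fall was larger in CAL27, by a log2 difference of -2.20 ± 0.18 (edgeR adjusted p = 5.21e-08).

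JUNB, a JUN protein that activates many targets more weakly than JUN and can counter it, was the JUN gene that fell. Its levels were 275 and 255 CPM in A431 DMSO, 159 and 166 in A431 NEDD8i, 302 and 326 in CAL27 DMSO and 99.1 and 98.2 in CAL27 NEDD8i. The 4 groups did not overlap, and the lines exchanged places: CAL27 was the higher line under DMSO and the lower line under NEDD8i. JUNB (ENSG00000171223.6, chromosome 19, 12791486 to 12793315) fell 1.63-fold in A431 (log2 -0.71 ± 0.05, edgeR adjusted p = 7.09e-09) and 3.18-fold in CAL27 (-1.67 ± 0.05, edgeR adjusted p = 7.35e-14), and the responses differed by -0.96 ± 0.07 (edgeR adjusted p = 2.75e-08).

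The sequences before the start sites of these 3 genes are shown because the genes fell together, with JUN, which rose, for contrast. They come from RefSeq on GRCh38.p14, whose table matched 8 of the 10 members by symbol (FOSL1 and BATF3 were unmatched) with 11 start sites, and they run from 150 to 11 bases before the start on the gene's strand, at chr14:75278678-75278817 on the plus strand for FOS, chr19:45467846-45467985 on the plus strand for FOSB, chr19:12791336-12791475 on the plus strand for JUNB and chr1:58784058-58784197 on the minus strand for JUN. Capitals mark TGACG, the core of the cyclic AMP response element, TATAAA, the TATA box, and TGACATCA, a variant AP-1 and ATF site.
FOS: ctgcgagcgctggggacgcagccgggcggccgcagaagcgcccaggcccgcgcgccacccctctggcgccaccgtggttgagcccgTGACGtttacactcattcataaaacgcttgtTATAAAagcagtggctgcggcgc
FOSB: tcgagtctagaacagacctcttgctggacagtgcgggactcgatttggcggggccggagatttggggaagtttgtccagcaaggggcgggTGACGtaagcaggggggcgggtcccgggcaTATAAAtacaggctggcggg
JUNB: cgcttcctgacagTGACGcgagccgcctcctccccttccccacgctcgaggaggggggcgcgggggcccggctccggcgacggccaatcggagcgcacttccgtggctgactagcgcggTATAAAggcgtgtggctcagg
JUN: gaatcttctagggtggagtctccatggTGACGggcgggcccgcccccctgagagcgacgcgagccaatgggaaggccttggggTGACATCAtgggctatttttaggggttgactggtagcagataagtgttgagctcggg

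In FOS and FOSB the TGACG began 64 and 60 bases before the start, and the TATAAA 33 and 30 bases before it. JUNB held TATAAA 31 bases and TGACG 137 bases before its start. In JUN the TGACATCA began 67 bases and a TGACG 123 bases before the start. Searched on both strands over the full windows of 250 bases before to 50 after the start, TGACG was found at 6 of the 11 start sites of the members (FOS, FOSB, FOSL2, JUN, JUNB and JUND) and at 24.6% of all 35116 start sites of the table. TATAAA was found at 5 of 11 (FOS, FOSB, JUNB and 1 site each of ATF3 and CREB5) and at 11.5% of all start sites, although the match of ATF3 lay 230 bases before its second start. The match of CREB5, a gene that rose, lay 31 bases before its first start, as in JUNB. The full element TGACGTCA, which contains TGACG, was found at 1 of 11 (JUND) and at 1.85% of all start sites. TGACATCA was found at 2 of 11 (JUN and ATF3) and at 2.61% of all, and the AP-1 site TGANTCA at 2 of 11 (FOSL2 and CREB5) and at 7.71%. These matches are descriptions of the windows and not measured binding sites.

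FOSL1 was the FOS gene that rose most, and it rose in both lines. Its levels were 48.4 and 39 CPM in A431 DMSO, 396 and 422 in A431 NEDD8i, 115 and 125 in CAL27 DMSO and 1058 and 894 in CAL27 NEDD8i. No groups overlapped, and each NEDD8i group lay above both DMSO groups. FOSL1 (ENSG00000175592.9, chromosome 11, 65892049 to 65900419) rose 9.35-fold in A431 (log2 3.22 ± 0.09, edgeR adjusted p = 1.53e-14) and 8.14-fold in CAL27 (3.02 ± 0.09, edgeR adjusted p = 1.45e-14). The difference of the responses was -0.20 ± 0.12, with a 95% interval of -0.45 to 0.05, and was not called (edgeR adjusted p = 0.214). That difference was called without A431 DMSO replicate 1 (-0.36, edgeR adjusted p = 0.0056) and without CAL27 NEDD8i replicate 1 (-0.34, edgeR adjusted p = 0.0148), with an adjusted p of 0.0056 to 0.882 over 15 alternatives.

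FOSL2, which encodes FRA-2, changed little by comparison. It stood at 113 and 116 CPM in A431 DMSO, 129.9 and 130.1 in A431 NEDD8i, 126.4 and 125.8 in CAL27 DMSO and 188 and 176 in CAL27 NEDD8i. The groups did not overlap, although A431 NEDD8i and CAL27 DMSO were close. FOSL2 (ENSG00000075426.12, chromosome 2, 28392802 to 28417317) rose by 0.18 ± 0.05 on the log2 scale in A431 (edgeR adjusted p = 0.00692) and by 0.53 ± 0.05 in CAL27 (edgeR adjusted p = 8.85e-08), and the rise was larger in CAL27 by 0.35 ± 0.07 (edgeR adjusted p = 0.000936). The A431 call was lost with unscaled library sizes (log2 0.08, edgeR adjusted p = 0.209), which moved the median of all genes from -0.01 to -0.11 in A431 and from -0.04 to -0.12 in CAL27.

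JUN, whose protein is the main dimer partner of the FOS family, was higher under NEDD8i in both lines. Its levels were 150.1 and 126 CPM in A431 DMSO, 290.1 and 325 in A431 NEDD8i, 178 and 192 in CAL27 DMSO and 381 and 392 in CAL27 NEDD8i. The groups did not overlap, and both NEDD8i groups were above both DMSO groups. JUN (ENSG00000177606.8, chromosome 1, 58780791 to 58784047) rose 2.22-fold in A431 (log2 1.15 ± 0.07, edgeR adjusted p = 5.86e-10) and 2.09-fold in CAL27 (1.06 ± 0.07, edgeR adjusted p = 8.98e-10). The responses differed by -0.09 ± 0.10, with a 95% interval of -0.30 to 0.12 (edgeR adjusted p = 0.545), and without A431 DMSO replicate 2 the difference was 0.046.

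JUND, the JUN gene usually expressed steadily in resting cells, differed more between the lines than between treatments. It stood at 30.2 and 23.9 CPM in A431 DMSO, 29.9 and 27.1 in A431 NEDD8i, 54.8 and 58.7 in CAL27 DMSO and 65.6 and 75.8 in CAL27 NEDD8i. The A431 groups overlapped and the CAL27 groups did not. Like JUN and JUNB, it is annotated with 1 exon. JUND (ENSG00000130522.6, chromosome 19, 18279694 to 18281622) had a log2 change of 0.07 ± 0.11 in A431 (edgeR adjusted p = 0.635) and rose by 0.32 ± 0.10 in CAL27 (edgeR adjusted p = 0.0128). The CAL27 call was lost without CAL27 DMSO replicate 1 (0.29, edgeR adjusted p = 0.0902), without CAL27 NEDD8i replicate 2 (0.21, edgeR adjusted p = 0.15) and with unscaled library sizes (0.24, edgeR adjusted p = 0.0569), within a range of 0.000241 to 0.15 over 16 alternatives. The difference of the responses, 0.25 ± 0.14, did not pass (edgeR adjusted p = 0.218), but passed without A431 DMSO replicate 2 (0.42, edgeR adjusted p = 0.015). In the A431 comparison the sign turned without that library (-0.089) and with unscaled library sizes (-0.031).

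**Figure D2:**
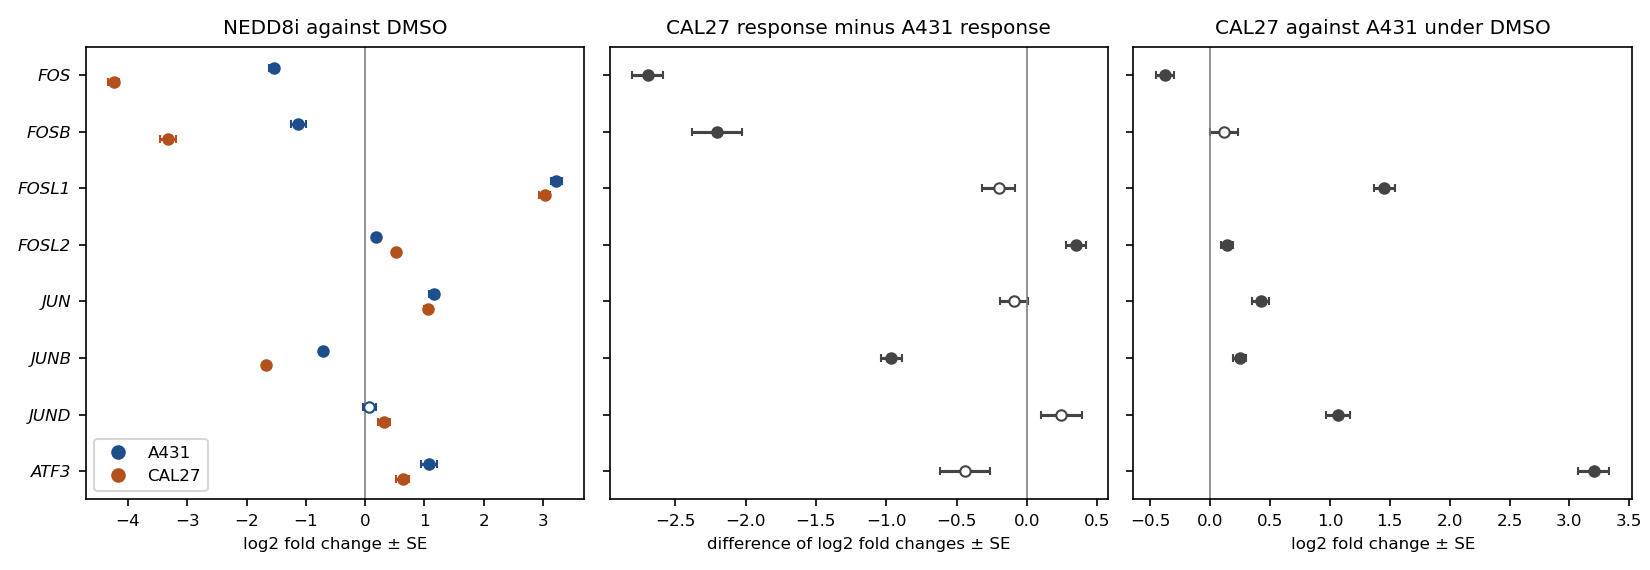
Log2 fold change of 8 AP-1 genes under NEDD8i in A431 (blue) and CAL27 (brown), the difference of the responses, and the log2 fold change of CAL27 against A431 under DMSO (horizontal axes, bars for ± 1 standard error), with filled points for changes called by edgeR at adjusted p under 0.05. FOS, FOSB and JUNB lie left of 0 in both lines and further left in CAL27, while FOSL1 and JUN lie right of 0 at about the same place. BATF3 and CREB5 are left out because a group had 0 counts.

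Among the partner genes, ATF3, a stress-induced factor that often represses its targets as a homodimer, rose in both lines. Its levels were 7.84 and 5.41 CPM in A431 DMSO, 13.8 and 14.3 in A431 NEDD8i, 55.1 and 67.4 in CAL27 DMSO and 98.1 and 92.2 in CAL27 NEDD8i. No groups overlapped, and both CAL27 groups lay above both A431 groups. ATF3 (ENSG00000162772.17, chromosome 1, 212565334 to 212620775) rose 2.11-fold in A431 (log2 1.08 ± 0.14, edgeR adjusted p = 5.22e-06) and 1.55-fold in CAL27 (0.63 ± 0.11, edgeR adjusted p = 0.00011). The responses differed by -0.44 ± 0.18, with a 95% interval of -0.82 to -0.07, and did not pass (edgeR adjusted p = 0.0651). That difference passed in 4 of 15 alternatives, among them the fits without A431 DMSO replicate 1 (-0.73, edgeR adjusted p = 0.000761) and without CAL27 DMSO replicate 1 (-0.57, edgeR adjusted p = 0.0279), and its adjusted p ranged from 0.000761 to 0.415.

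CREB5, a CREB and ATF-type factor that can pair with JUN, was near or at 0 in 3 of the groups and stood out in CAL27 NEDD8i. It had 0 and 0 counts in A431 DMSO, 10 and 14 in A431 NEDD8i, 4 and 20 in CAL27 DMSO and 990 and 858 in CAL27 NEDD8i. On the CPM scale the last 3 groups stood at 0.219 and 0.255, at 0.0741 and 0.303, and at 18.4 and 14.3. CREB5 (ENSG00000146592.17, chromosome 7, 28299321 to 28825894) rose 81.9-fold in CAL27 (log2 6.36 ± 0.37, edgeR adjusted p = 4.36e-10). This fold depended on which DMSO library set the base: the log2 rise was 5.76 without CAL27 DMSO replicate 1 and 7.76 without replicate 2. In A431 the rise was also called (edgeR adjusted p = 0.000658), on 24 counts against 0, and was at least 8.67-fold taking 3 counts in the DMSO group as the floor. Because both mates of a read pair could be counted, that floor is low and the bound high. The difference between the lines was not called (edgeR adjusted p = 0.676), and with A431 DMSO at 0 its fitted size is no measure of the difference.

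BATF3, a small bZIP protein that pairs with JUN proteins and is best known from dendritic cells, had nearly all of its counts in CAL27. It had 0 and 8 counts in A431 DMSO and 0 and 0 in A431 NEDD8i, against 80 and 93 in CAL27 DMSO and 134 and 132 in CAL27 NEDD8i. The CAL27 levels were 1.48 and 1.41 CPM under DMSO and 2.49 and 2.2 under NEDD8i, without overlap. BATF3 (ENSG00000123685.9, chromosome 1, 212686417 to 212699840) had a log2 change of 0.70 ± 0.57 in CAL27 that did not pass (edgeR adjusted p = 0.347), although it passed when the 4 CAL27 libraries were fitted alone (0.73, edgeR adjusted p = 0.0487). In A431 it missed the threshold (edgeR adjusted p = 0.0501, from 0.002 to 0.147 over 14 alternatives, 7 of which called it, the fits without A431 DMSO replicate 1 and without either CAL27 NEDD8i library among them), and all 8 counts came from A431 DMSO replicate 2. The difference of the responses was called (edgeR adjusted p = 0.0399), but not without that library (log2 0.72, edgeR adjusted p = 1), nor without either A431 NEDD8i library, either CAL27 DMSO library or CAL27 NEDD8i replicate 1 (edgeR adjusted p = 0.0502 to 0.106). ATF3 and BATF3 are neighbours on chromosome 1, with 65641 bases between them.

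Under DMSO the lines differed in 9 of the 10 members, against 58.9% of all genes tested: 8 were higher in CAL27, against 29.9% of all genes tested, and FOS was lower, against 29%. The CAL27 DMSO and A431 DMSO libraries of this comparison also served as controls above, so it is not independent of the responses. ATF3 showed the largest difference among members with counts in every library, 9.2-fold (log2 3.20 ± 0.13, edgeR adjusted p = 1.02e-12). FOSL1 was 2.74-fold higher in CAL27 (1.45 ± 0.09, edgeR adjusted p = 1.39e-10) and JUND 2.1-fold (1.07 ± 0.10, edgeR adjusted p = 8.28e-08). JUN was higher by 0.42 ± 0.07 and JUNB by 0.25 ± 0.05, while FOS was lower by a log2 difference of -0.38 ± 0.07 (edgeR adjusted p = 5.88e-05, 0.000597 and 0.000279). For JUN, JUNB and FOS these values were smaller than the response to NEDD8i in CAL27. FOSL2 was higher by 0.14 ± 0.05 (edgeR adjusted p = 0.025), a call lost when any 1 of the 4 DMSO libraries was left out (edgeR adjusted p = 0.0635 to 0.123).

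FOSB did not pass between the lines under DMSO (log2 0.12 ± 0.12, edgeR adjusted p = 0.42). Its value was 0.35 without A431 DMSO replicate 1 (edgeR adjusted p = 0.0083) and -0.091 without replicate 2. For BATF3, CAL27 DMSO held 173 counts against 8 (log2 4.23 ± 0.77, edgeR adjusted p = 0.000162), a value of 3.20 without A431 DMSO replicate 1, while without replicate 2 A431 was at 0. CREB5 was called higher in CAL27 DMSO on 24 counts against 0 (edgeR adjusted p = 0.000765), at least 7.27-fold with the floor at 3 counts over the group. Of those 24 counts, 20 came from CAL27 DMSO replicate 2.

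Other bZIP genes that can pair with the AP-1 proteins were measured from a list of 21, of which 20 were tested. In A431, 10 rose and 3 fell (median log2 change 0.19), and in CAL27, 11 rose and 6 fell (median 0.24). All genes tested were called higher and lower in 22.5% and 21.1% of cases in A431 and in 23.2% and 26.4% in CAL27, with medians of -0.01 and -0.04. The small MAF genes, which have no activation domain and pair with NRF2 or with FOS proteins, led the rises in both lines. MAFG rose by 2.62 ± 0.07 in A431 and 2.11 ± 0.07 in CAL27, MAFF by 2.38 ± 0.09 and 3.44 ± 0.09, and MAFK by 1.92 ± 0.07 and 2.29 ± 0.07. ATF2, a constitutive JUN partner, fell in both lines, with log2 changes of -0.73 ± 0.08 in A431 and -0.39 ± 0.08 in CAL27, and JDP2, a repressor that binds JUN, fell by 0.41 ± 0.08 in A431, while its CAL27 value of -0.041 ± 0.10 was not called. CEBPD, a stress-responsive C/EBP factor, moved in opposite directions, with log2 changes of 0.86 ± 0.13 in A431 and -1.92 ± 0.13 in CAL27 and a difference of -2.78 ± 0.19 (edgeR adjusted p = 4.23e-09).

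Kinases and serum response factors that act on AP-1 genes showed smaller changes. Of 20 genes, 9 rose and 4 fell in A431 (median 0.17), and 10 rose and 7 fell in CAL27 (median 0.14), beside 22.5% and 21.1% of all genes tested in A431 and 23.2% and 26.4% in CAL27. ELK3, a ternary complex factor that can repress FOS, rose by 1.47 ± 0.06 in A431 and 1.95 ± 0.06 in CAL27. MRTFB, a coactivator of SRF, fell in both lines, with log2 changes of -0.53 ± 0.07 and -1.43 ± 0.07 and a difference of -0.90 ± 0.10 (edgeR adjusted p = 2.01e-06). SRF itself rose by 0.78 ± 0.06 in A431 and 0.72 ± 0.06 in CAL27. ELK1 was called higher only in CAL27 (0.39 ± 0.07) and MRTFA lower only in A431 (-0.24 ± 0.08), while ELK4 was called in neither line. MAP2K1, the ERK kinase MEK1, rose by 0.69 ± 0.05 in A431 and 1.27 ± 0.05 in CAL27. Its relative MAP2K2 had log2 changes of 0.47 ± 0.07 in A431 and -0.54 ± 0.07 in CAL27. The responses of MAP2K2 differed by -1.01 ± 0.10 (edgeR adjusted p = 7.92e-07). MAP3K5 fell in both lines, with log2 changes of -0.51 ± 0.12 in A431 and -0.77 ± 0.13 in CAL27. MAP2K4, a kinase that activates JNK, rose by 0.91 ± 0.08 in A431 and 0.61 ± 0.08 in CAL27. MAPK8, the JUN kinase JNK1, rose by 0.78 ± 0.07 in CAL27 and had a log2 change of 0.14 ± 0.07 in A431 that was not called.

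**Figure D3:**
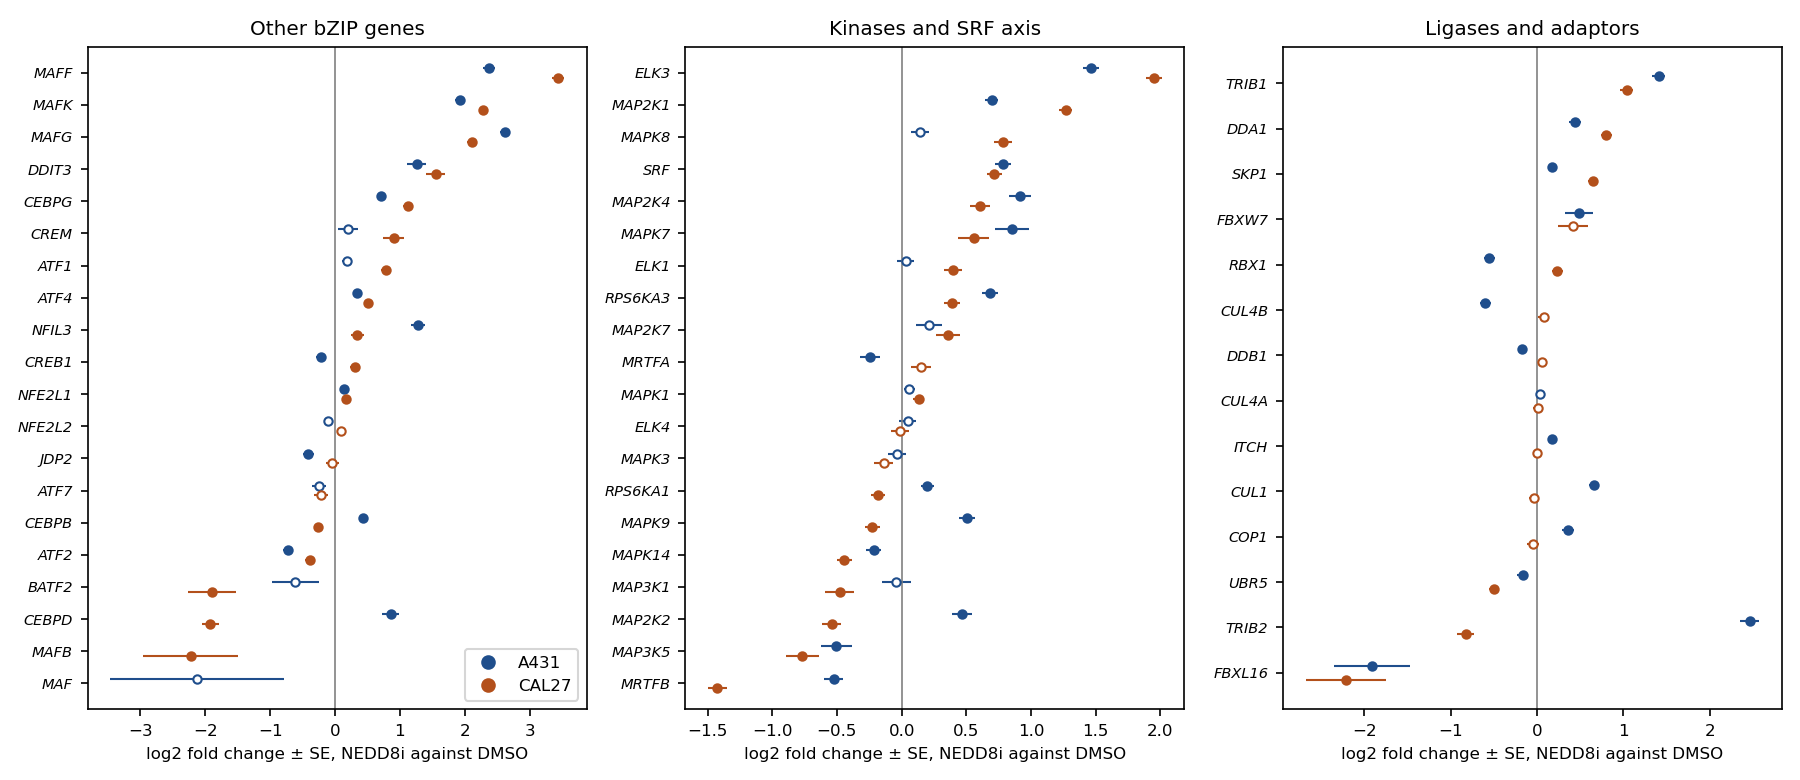
Log2 fold change under NEDD8i (horizontal axes, bars for ± 1 standard error) in A431 (blue) and CAL27 (brown) for other bZIP genes, kinases and the SRF axis, and ligases and adaptors, with filled points for changes called by edgeR and genes with 0 counts in a group left out for that line. MAFF, MAFG and MAFK lie right of 0 in both lines, and TRIB2 and CEBPD on opposite sides.

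Genes for ligases and adaptors that act on JUN and FOS proteins were tested in 14 of 15 cases. In A431, 8 rose and 5 fell (median 0.18), and in CAL27, 4 rose and 3 fell (median 0.03). The shares of all genes tested were 22.5% and 21.1% in A431, and 23.2% and 26.4% in CAL27, close to the shares of the list in CAL27. TRIB1, a pseudokinase that brings substrates to COP1, rose by 1.41 ± 0.08 in A431 and 1.04 ± 0.08 in CAL27. Its relative TRIB2 rose by 2.46 ± 0.11 in A431, from 5.17 ± 0.531 to 28.5 ± 0.357 CPM, and fell by 0.83 ± 0.10 in CAL27, from 50.3 ± 2.6 to 28.4 ± 2.86 CPM. The responses of TRIB2 differed by -3.29 ± 0.15 (edgeR adjusted p = 3.16e-11). CUL1 rose by 0.66 ± 0.06 and CUL4B fell by 0.60 ± 0.07 in A431. Neither was called in CAL27, where CUL1 had a log2 change of -0.031 ± 0.06 and CUL4B of 0.08 ± 0.06. FBXL16 held the largest fall of the list in both lines, with log2 changes of -1.91 ± 0.44 in A431 and -2.21 ± 0.47 in CAL27. Its DMSO levels were low, at 2.31 ± 0.222 CPM in A431 and 1.49 ± 0.566 CPM in CAL27.

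Genes known as AP-1 targets in epithelial cells were taken from a list of 38, of which 37 were tested. Like the other lists, it was chosen with earlier results of these data known. In A431, 24 rose and 3 fell, with a median log2 change of 0.99, or 0.80 over the 35 members left when MMP3 and IL6, with at most 3 counts in either group, are set aside. In CAL27, 22 rose and 10 fell, with a median of 0.65. Over all genes tested, 22.5% were higher and 21.1% lower in A431, and 23.2% higher and 26.4% lower in CAL27, so the share of targets that fell in CAL27 was near the background. HBEGF, a ligand of the EGF receptor, rose from 11.1 ± 0.758 to 125 ± 2.26 CPM in A431 and from 15.1 ± 0.258 to 169 ± 1.5 CPM in CAL27, log2 3.49 ± 0.07 and 3.48 ± 0.07. PLAUR, the urokinase receptor, rose by 3.53 ± 0.06 in A431 and 3.10 ± 0.06 in CAL27. SERPINB2, an inhibitor of urokinase, rose by 2.78 ± 0.06 in A431, from 78.8 ± 6.87 to 539.7 ± 0.263 CPM, and by 6.79 ± 0.08 in CAL27, from 5.84 ± 0.168 to 646 ± 41 CPM. SPP1, which encodes osteopontin, rose by 5.67 ± 0.07 in A431 and by 8.52 ± 0.15 in CAL27, where its DMSO level rested on 13 counts.

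Some matrix metalloproteinase genes, whose promoters carry well-studied AP-1 sites, held the largest falls of the list. These were MMP13, MMP1 and MMP10 in CAL27, and MMP13 alone in A431. MMP3 was not called in either line, and MMP9 was not tested. MMP13, a collagenase, fell in both lines, with log2 changes of -3.51 ± 0.16 in A431 (15.8 ± 1.2 to 1.35 ± 0.612 CPM) and -4.97 ± 0.12 in CAL27 (185 ± 7.58 to 5.9 ± 0.121 CPM). MMP1 fell by 2.31 ± 0.12 in CAL27 and rose by 2.17 ± 0.24 in A431, where its DMSO level was 0.594 ± 0.291 CPM, with a difference of -4.48 ± 0.26 (edgeR adjusted p = 7.69e-10). MMP10 fell by 1.98 ± 0.15 in CAL27 and had a log2 change of 0.71 ± 0.34 in A431 that was not called. CXCL8, which attracts neutrophils, rose by 7.94 ± 0.16 in A431 from 0.347 ± 0.271 CPM and by 0.94 ± 0.08 in CAL27 from 158 ± 14.8 CPM. For the difference of the responses, 10 of the 37 targets were called higher in CAL27 and 18 lower, against 14.2% and 19.8% of all genes tested.

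**Figure D4:**
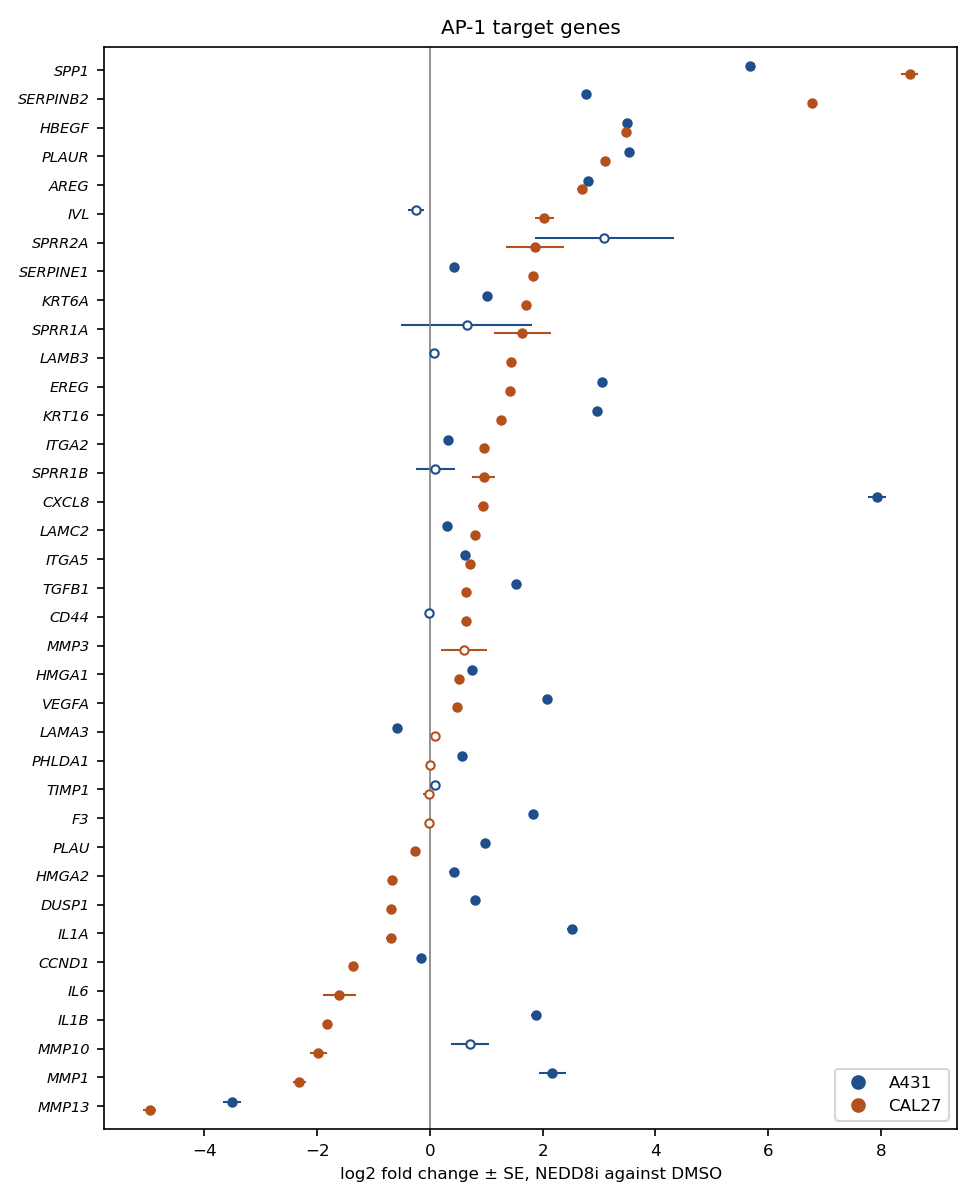
Log2 fold change of the tested AP-1 target genes under NEDD8i (horizontal axis, bars for ± 1 standard error) in A431 (blue) and CAL27 (brown), ordered by the CAL27 value, with filled points for changes called by edgeR and genes with 0 counts in a group left out for that line. SPP1, SERPINB2, HBEGF and PLAUR lie far right in both lines, MMP13 far left in both, and MMP1 on opposite sides.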

How the data were processed

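RNA of 8 libraries was read with a QuantSeq FWD kit, which primes on poly(A) tails, per the labels' protocols. The authors deposited whole-number counts per gene. Reads were aligned to GRCh38 with STAR, per the submitters' processing notes, and counted with featureCounts 2.0.8 over exons of GENCODE 39 (basic), without strand and with each mate counted, per the file headers. Of counts from 1 to 40, 70.2% to 76.7% were even, so counting errors and floors taken from counts are too small. No exonic base of a member lay within an exon of another gene (GenomicRanges 1.54.1).

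Symbols came from a table of gene names. CPM were computed here from the deposited counts. Differences were tested with edgeR 4.0.16 (R 4.3.3) by quasi-likelihood tests after filterByExpr and TMM scaling, in 1 fit of the 4 groups, with Benjamini-Hochberg adjustment over 18738 genes. The code was tested on simulated data. The standard error is the absolute log2 change divided by the square root of F. All 10 members are named. From each other list except the markers, at most the 3 largest rises and 3 largest falls called in each line are named. Their values in the other line are given beside them. SRF, ELK1, ELK4, MRTFA, MMP3, MMP9 and IL6 are named in addition. The members and lists were chosen with earlier results of these data known, so they are no independent support. Alternatives were RLE or no scaling, DESeq2 1.42.0, 2 other filters, fits of only the libraries compared, halved counts, a replicate block, and leaving out each library. Part of the immune marker list is not reported here.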

Additional observations from a re-analysis of the deposited data

Results flagged for a closer look

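The response to NEDD8i differed between the lines for 5 of the 10 members, against 34% of all genes tested. The test was that of the difference itself (edgeR quasi-likelihood test, CAL27 response minus A431 response, 2 libraries per group). The log2 differences were -2.70 for FOS, -2.20 for FOSB and -0.96 for JUNB, each with a larger fall in CAL27, and 0.35 for FOSL2, with a larger rise in CAL27. For BATF3 the fitted difference was 5.79. That value is no measure of size, because A431 NEDD8i held 0 counts and A431 DMSO held 8, all in replicate 2. The BATF3 call did not hold under every alternative and was lost with halved counts.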

How the results depend on the processing

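Over 627 values of single members under the alternatives, 588 kept their direction and their side of the threshold. The falls of FOS, FOSB and JUNB, the rises of FOSL1, JUN, ATF3 and CREB5, and the differences between responses for FOS, FOSB, FOSL2 and JUNB held under every alternative run. Members called lower in CAL27 than in A431 in their response numbered 3, and 5 with no filter beyond 1 count, where FOSL1 and ATF3 were added. Leaving out each library gave 3 to 5, with 5 without A431 DMSO replicate 1. Members called higher in that difference numbered 2, and 1 with halved counts, where BATF3 was lost, and 1 to 2 when leaving out each library. Directions turned for JUND in A431 with no scaling (-0.031) and without A431 DMSO replicate 2 (-0.089, within -0.089 to 0.26 when leaving out each library), for JUN in the difference without that library (0.046, within -0.21 to 0.046), and for FOSB between the lines under DMSO without it (-0.091, within -0.091 to 0.35). The fitted difference of responses of CREB5, -0.38, was 0.28 with DESeq2, 0.59 with halved counts and 1.06 without CAL27 DMSO replicate 2 (-0.98 to 1.06 when leaving out each library). It rests on 0 counts in A431 DMSO and measures no size. BATF3 in A431 gave no value without A431 DMSO replicate 2. The cause of the other turns was not tested. With the replicate number as a block, 5 members were called higher and 3 lower in A431, 6 and 3 in CAL27, 2 and 3 for the difference, and 8 and 1 under DMSO, the same counts as without it. Deviations of same-numbered libraries correlated by -0.03 to 0.02 across genes. These values gave no sign that the numbers pair the libraries, but with 2 libraries per group they cannot exclude it. At this depth BATF3 and CREB5 in A431 rest on 0 to 14 counts per library.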

Other observations

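Genes with a pattern of levels most like that of FOSL1 over the 8 libraries, by Pearson's r of log2 CPM across libraries that share lines and treatments, were MED8 (r = 0.999), VDAC2 (0.998) and PELO (0.997). MED8, a subunit of the Mediator complex, went from 26.6 ± 0.941 to 57.8 ± 0.201 CPM in A431 and from 38.9 ± 0.472 to 78.5 ± 3.42 CPM in CAL27. For CREB5 the closest were PHF5A, PLEKHM1 and NFATC2 (r = 0.993 for each). PHF5A went from 60.1 ± 0.0473 to 78.3 ± 2.94 CPM in A431 and from 70.2 ± 5.9 to 126 ± 0.23 CPM in CAL27. PLEKHM1 went from 25.1 ± 1.22 to 33.5 ± 0.0472 CPM in A431 and from 31.2 ± 1.64 to 54.7 ± 4.26 CPM in CAL27. Both were expressed in every group, unlike CREB5. NFATC2, a transcription factor that can bind DNA beside AP-1, went from 0.184 ± 0.0143 to 1.33 ± 0.334 CPM in A431 and from 1.01 ± 0.115 to 31.1 ± 1.97 CPM in CAL27. Pearson's r takes no account of the size of a change. These correlations are descriptions of 4 groups of 2 libraries and carry no test.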
